A study of Mus musculus with 8 samples.

Results

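The solute carrier (SLC) genes were described as every gene in the count table whose symbol begins with Slc, a family number, the letter a and a member number. That rule found 227 of the 14971 genes with a symbol, in 45 families. The rule itself reads the symbol alone. The table held 8 RNA-seq libraries, from macrophages of the mouse colonic lamina propria sorted by flow cytometry as MHCII+CD64+ and then as GPR35-positive or GPR35-negative, with both fractions taken from each of 4 male mice (replicates 1 to 4, n = 4 per group). All groups came through the same epithelial strip with EDTA, the same collagenase and DNase digestion and the same sort. The labels give no strain, age, genotype or treatment, so a difference below is one between 2 sorted fractions of the same animals. GPR35 is a G-protein-coupled receptor of the gut and of immune cells, and CD64 is a high-affinity Fc receptor used to gate macrophages.

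Solute carriers are membrane proteins that move small molecules along or against gradients of ions, protons or the solute itself. Families are numbered by sequence, so that members of a family often share a cargo, while the membrane they sit in can be the cell surface, the endolysosome, the Golgi or the inner mitochondrial membrane. In macrophages they are known for withholding iron and manganese from phagosomes, for emptying lysosomes of amino acids and nucleosides after a meal of dead cells, and for feeding glucose and glutamine to activated cells.

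Library totals were 33769639 to 48599893 counts in the GPR35-positive group and 15996622 to 30066596 counts in the GPR35-negative group. Gpr35 itself had a log2 fold change of 4.61 ± 0.39 (SE) towards the positive fraction. The 20 macrophage markers were all higher in the GPR35-positive group (median log2 fold change 2.08), with a summed level of 48837 to 57642 CPM (the count scaled to an effective library size) against 5288 to 23705. The 12 plasma and B cell markers were all lower (median -5.53), at 1245 to 2698 against 73655 to 144193 CPM. Of the other marker lists, 8 of 9 T and innate lymphoid, 8 of 10 stromal and endothelial and 2 of 10 epithelial genes were lower and none was higher. Their summed levels were 65.1 to 79.7 against 351.5 to 604.6 CPM for T and innate lymphoid markers, 216 to 1087 against 3160 to 7233 CPM for stromal and endothelial markers, and 79.6 to 143 against 203 to 632 CPM for epithelial markers. No marker was at 0 in all GPR35-positive libraries. The macrophage genes Csf1r, Adgre1 and Fcgr1 were detected in every library of both fractions, and Jchain, a plasma cell gene, was at 99070 ± 27389 CPM in the GPR35-negative one. GPR35-negative replicate 1 stood apart from the other 3 of its group, with a macrophage sum of 23705 CPM against 11671, 5288 and 7230 CPM. It was the highest GPR35-negative library for 33 of the 49 solute carriers called higher below. The part of these other cells in the solute carrier differences was not tested, and in bulk libraries fewer cells of a type and less RNA per cell cannot be told apart.

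The summed level of solute carriers depended on the scaling. As a share of the library total they took 0.809 ± 0.0301% of counts in GPR35-positive libraries and 0.827 ± 0.0561% in GPR35-negative ones (SD, n = 4), with ranges of 0.773 to 0.847% and 0.764 to 0.881% that overlapped. On the TMM scale used for levels elsewhere, their sum was 8522 to 9603 CPM in GPR35-positive and 6743 to 7973 CPM in GPR35-negative libraries, higher with no overlap. Single carriers moved both ways. Of 213 members with enough counts to test, 49 were higher in GPR35-positive libraries and 37 were lower at an adjusted p under 0.05 (edgeR's quasi-likelihood F-test, Benjamini-Hochberg over all tested genes), and 127 did not pass. That is 23% and 17.4% of the tested members, against 18.5% higher and 19.5% lower over all 14184 tested genes (38.0% in either direction). The share of members called was therefore near that of genes at large. The members' median log2 fold change was 0.0991 and the all-gene median was -0.0487, while the median size of change was 0.798 for members and 0.663 for all genes. At least a 2-fold difference was seen in 31 of the members called higher and 27 called lower, and at least a 4-fold one in 7 and 14. Shares of all genes at these sizes are not given, so the counts are not a trait of the members. In 48 of the 49 and 36 of the 37, all 4 animals went the same way. These members were already selected for a difference in the same libraries, and no share of all genes is given for this. Of the 213 tested members, 53 had higher and 34 had lower values without overlap between the 4 libraries of each group. Over all 14184 tested genes, 21.5% had higher and 20.6% had lower values without overlap. Among the called members this held for 44 of the 49 and 31 of the 37, which were already selected for a difference.

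The counts changed when animals or libraries were left out. Fewer libraries lower the power for every gene. No share of all genes called is given for these settings, so the changes cannot be set against those of genes at large. Leaving out both libraries of replicate 2, 3 or 4 lowered the number called higher to 32, 22 or 27, and leaving out GPR35-positive replicate 1 lowered it to 31. Without GPR35-negative replicate 1, the library with the most macrophage transcripts, 53 were higher and 38 lower. With the animal as a block 49 were higher and 34 lower (19.4% and 20.0% of all genes).

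Directions are relative to the other genes of a library. When libraries were scaled to the geometric mean of the 20 macrophage markers in place of TMM, the all-gene median moved to -2.72, 0 members were called higher and 176 lower by edgeR (0.451% and 87.5% of all genes; also 0 higher at an unadjusted p under 0.05). On that scale only Slc11a1 (0.175) and Slc36a3 (2.75) of the 49 kept a value above 0. Neither differed detectably from 0 on it (edgeR adjusted p = 0.684 and 0.111). All 49 lay above the shifted all-gene median and all 37 lay below it, as with TMM, RLE, library-size and upper-quartile scaling. A change of scaling moves every gene and the median by nearly the same amount. The sides therefore follow from the TMM calls and give no further support to them. With library-size scaling the all-gene median was -0.338, and the share of all genes called is not given. The split of members was then 26 higher and 53 lower, and among the genes described below the calls of Slc7a11, Slc7a8, Slc36a1, Slc11a2, Slc25a36, Slc44a2, Slc35a5 and Slc9a3r1 ended (adjusted p = 0.0543, 0.067, 0.0518, 0.0875, 0.0909, 0.0505, 0.0685 and 0.59). Each solute carrier given as higher below, other than Slc11a1 and Slc36a3, therefore turns below 0 on the macrophage scale and is to be read relative to the all-gene median. The genes named in what follows come from the rule given with the methods, other than Slc11a2, Slc31a2, Slc30a6, Slc39a8, Slc41a1, Slc41a3, Slc38a7, Slc36a1, Slc36a3, Slc9a3r1, Slc7a7, Slc43a1, Slc43a2, Slc37a1, Slc5a10, Slc33a1, Slc44a1, Slc44a2, Slc20a1, Slc6a9 and Slc18a2, which were chosen after their values were seen.

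**Figure D1:**
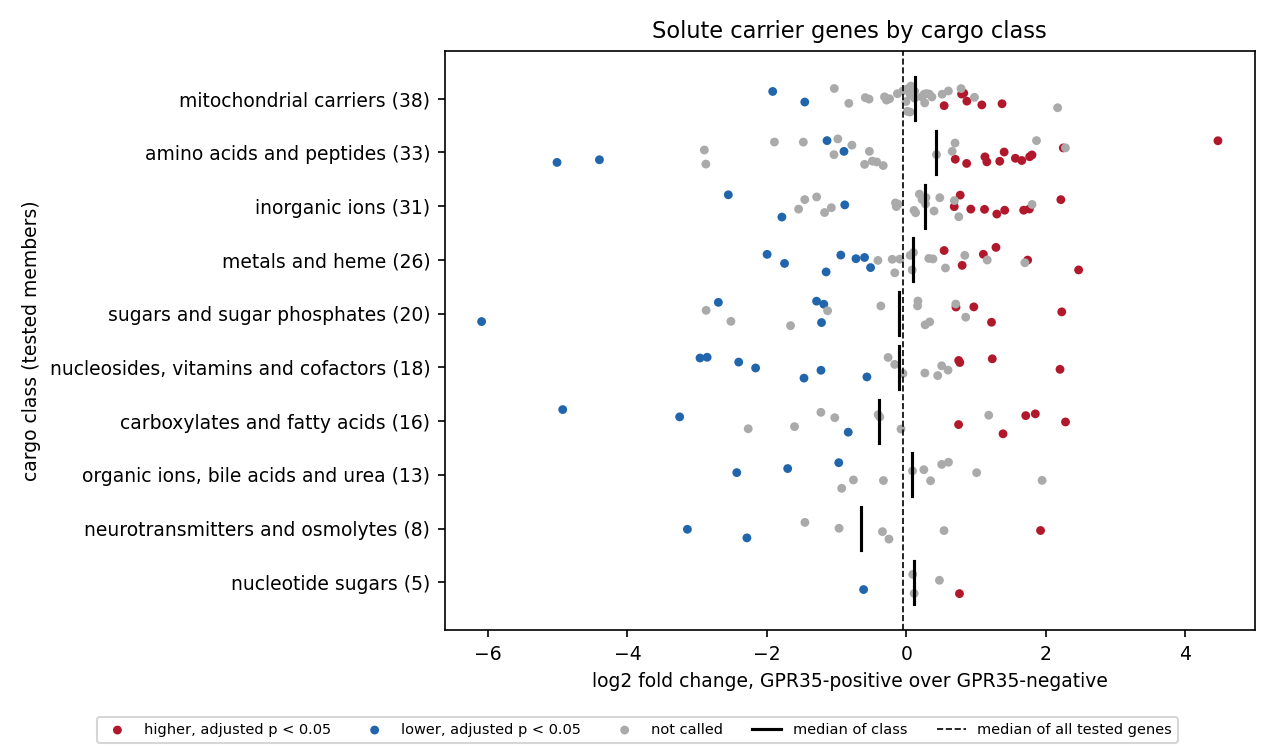
Each point is a tested solute carrier gene, placed on the x axis by its log2 fold change (GPR35-positive over GPR35-negative, TMM scaling) and on the y axis by the cargo class of its family, with the number tested in brackets. Red and blue mark the genes called higher and lower, short bars the class medians and the dashed line the all-gene median of -0.0487. Amino acid and peptide carriers had 12 higher and 4 lower, organic ion carriers 0 and 3, and mitochondrial carriers crowded near 0. With macrophage identity scaling the dashed line would move to -2.72. The 5 genes that match by name only are not drawn.

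The counts of each class are to be read against the 18.5% higher and 19.5% lower of all tested genes, and no test compared classes with each other or with other genes.

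The metal and heme carriers went both ways, also among carriers of the same metal. Slc11a1, the phagosomal proton-coupled exporter of iron and manganese, had the largest increase of the class, and the zinc exporter Slc30a1 and the copper carrier Slc31a2 were higher with it. Zinc importers of family 39 and magnesium carriers of family 41 made up most of those that were lower. Of 26 tested, 6 were higher (23.1%) and 7 lower (26.9%), near the shares of all genes, with a median log2 fold change of 0.0906.

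Slc11a1 (chr1:74375014-74386057, GRCm38) was at 633, 612, 490.2 and 607 CPM in GPR35-positive replicates 1 to 4 and at 198, 110.1, 56.3 and 59.3 CPM in GPR35-negative ones. All 4 positive libraries were above the highest negative one, which was replicate 1. This gave Slc11a1 a log2 fold change of 2.47 ± 0.40 (SE), adjusted p = 0.00192. Slc11a2, the divalent metal transporter of endosomes, was also higher, so that both members of family 11 were; log2 fold change 0.80 ± 0.24 (SE), adjusted p = 0.0264. The call of Slc11a2 ended without replicate 2, 3 or 4 (adjusted p = 0.069, 0.117 and 0.0593), without GPR35-positive replicate 1, 2 or 3 (0.0702, 0.0537 and 0.0505) or without GPR35-negative replicate 3 (0.0697).

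Slc40a1 is ferroportin, the cell's iron exporter. It was at 14.7, 19.01, 51.1 and 66.7 CPM in the GPR35-positive libraries and at 34.9, 39.05, 42.8 and 45.4 CPM in the GPR35-negative ones. The positive libraries lay on both sides of the negative group, low in replicates 1 and 2 and high in replicates 3 and 4, and no difference was detectable (log2 fold change -0.097 ± 0.44 (SE), adjusted p = 0.88). Slc48a1, which carries heme out of the endolysosome, was lower at 72.5, 84.9, 86.3 and 97.2 against 121, 114, 138 and 144 CPM, with no overlap. Slc48a1's log2 fold change was -0.60 ± 0.13 (SE), adjusted p = 0.00733; the call ended without replicate 3 (adjusted p = 0.0579), and Slc48a1 overlaps Hdac7, whose reads cannot be told apart from it in libraries that do not mark strand.

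Zinc carriers moved in both directions. Slc30a1, which removes zinc at the plasma membrane, was at 50.01, 74.7, 45.1 and 46.8 CPM against 19.6, 11.7, 22.9 and 10.7 CPM. Every positive library exceeded every negative one, and GPR35-positive replicate 2 was the highest (log2 fold change 1.74 ± 0.29 (SE), adjusted p = 0.00225). It overlaps the listed non-coding gene 1700034H15Rik. In family 30, 2 of 6 tested were higher and 1 lower, the latter Slc30a6, whose call ended with the animal as a block (adjusted p = 0.0704), without replicate 1, 3 or 4 (0.101, 0.185 and 0.135), without GPR35-positive replicate 1, 3 or 4 (0.0911, 0.0924 and 0.0806) or without GPR35-negative replicate 3 or 4 (0.0843 and 0.0679). In family 39, 0 of 11 were higher and 3 were lower by edgeR. At an unadjusted p under 0.05 the number higher was 1, Slc39a8, which DESeq2 and the fit with the animal as a block also called and limma voom did not.

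Slc39a7 (chr17:34028266-34031690) releases zinc from the endoplasmic reticulum and Golgi. It was at 158, 158, 148 and 145 CPM in GPR35-positive and 344, 358, 365 and 287 CPM in GPR35-negative libraries. Both groups were tight and well apart; log2 fold change -1.15 ± 0.12 (SE), adjusted p = 2.64e-04. Slc39a4, an importer best known from the gut epithelium, was at 5.39, 7.90, 11.99 and 10.6 against 20.6, 46.6, 38.3 and 37.96 CPM, lowest among the negatives in replicate 1 (log2 fold change -1.998 ± 0.32 (SE), adjusted p = 0.00192). Slc41a2, a magnesium carrier, was at 10.2, 10.2, 9.49 and 9.61 against 28.1, 37.6, 27.97 and 38.8 CPM. The fitted log2 fold change of Slc41a2 was -1.75 ± 0.17 (SE), adjusted p = 1.89e-04. Slc41a1 was lower too (log2 fold change -0.94) and Slc41a3 was higher (1.10), so the 3 magnesium carriers did not move as one. The call of Slc41a3 ended without replicate 2, 3 or 4 (adjusted p = 0.0511, 0.0668 and 0.0553).

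**Figure D2:**
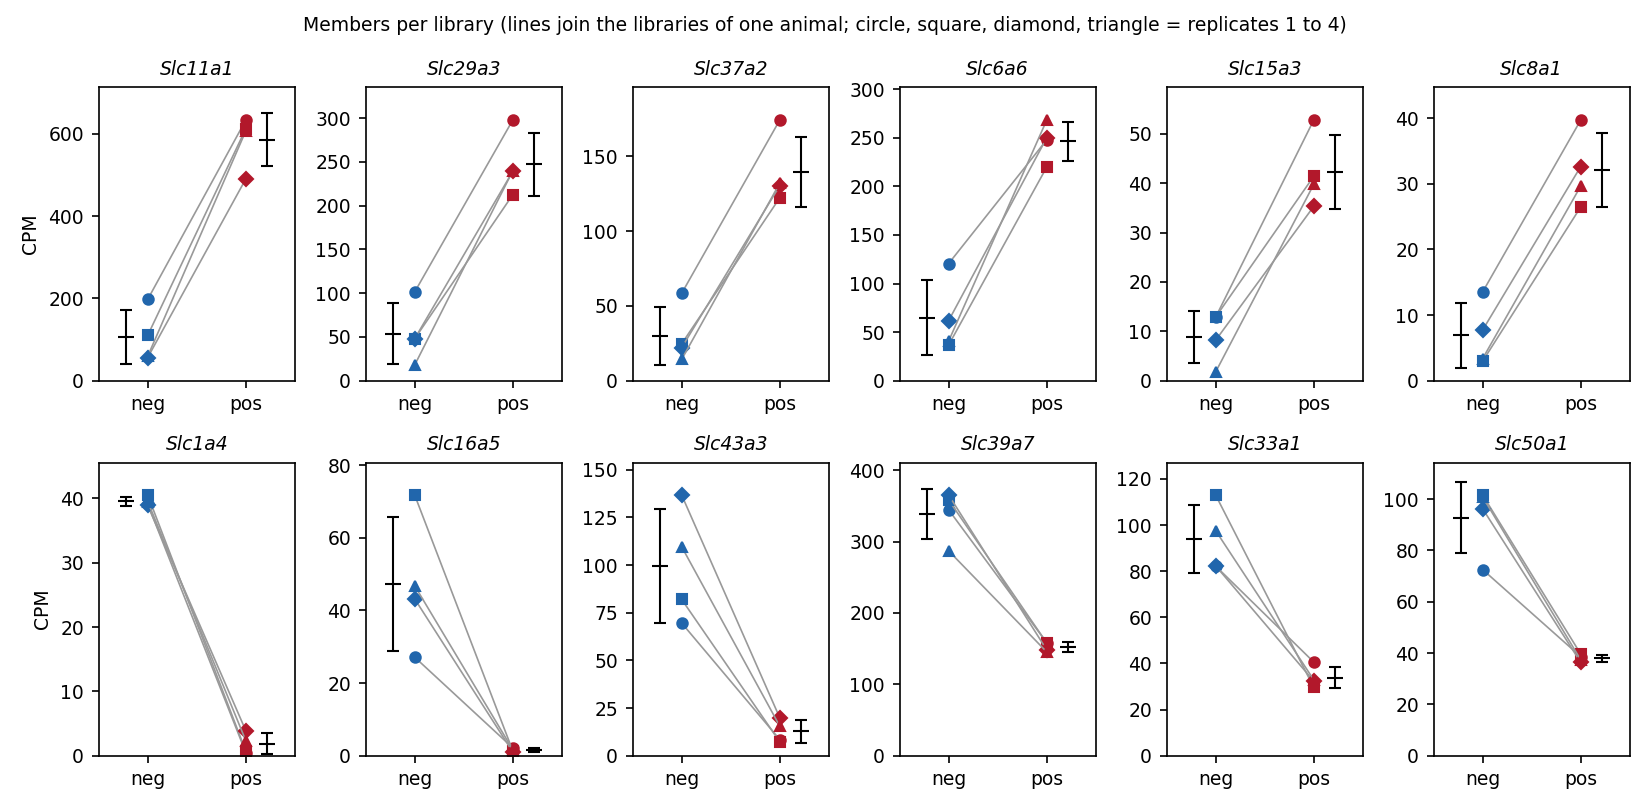
Each panel shows 1 gene, with CPM on the y axis from 0 and the GPR35-negative (neg) and GPR35-positive (pos) libraries on the x axis; grey lines join the 2 libraries of an animal, and black marks give mean ± SD (n = 4). In the upper row every line rises, Slc11a1 from 56.3 to 197.5 CPM up to 490.2 to 633 CPM, and the circle of negative replicate 1 is the highest negative point in the panels for Slc11a1, Slc29a3, Slc37a2, Slc6a6 and Slc8a1. In the lower row every line falls, and all 4 points of each group stay apart. With macrophage identity scaling the upper genes other than Slc11a1 would lie below 0 on the log2 scale. Slc11a1 would not differ detectably from 0 (edgeR adjusted p = 0.684).

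Of 33 tested carriers of amino acids and peptides, 12 were higher (36.4%, against 18.5% of all genes) and 4 lower (12.1%, against 19.5%), with a median log2 fold change of 0.430. The higher ones described here include Slc15a3 and Slc15a4, which carry histidine and small peptides out of the endolysosome, Slc38a7, a lysosomal glutamine exporter, and Slc36a1, a proton-coupled carrier of small amino acids. They also include carriers of the plasma membrane, Slc7a7, Slc7a8, Slc7a11 and Slc43a2. The neutral amino acid carriers of the plasma membrane went both ways, with Slc1a4, Slc1a5, Slc7a5 and Slc43a1 lower and Slc7a8 and Slc43a2 higher.

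Slc15a3 was at 52.8, 41.4, 35.3 and 39.8 CPM in the GPR35-positive libraries and 12.9, 12.9, 8.19 and 1.76 CPM in the GPR35-negative ones, with the lowest value in negative replicate 4. On the log2 scale the difference for Slc15a3 was 2.25 ± 0.52 (SE), adjusted p = 0.00915. It overlaps Tmem132a on the genome. Slc15a4 was at 161, 149.5, 135 and 137 against 62.7, 84.1, 58.9 and 61.7 CPM, again with no overlap and with negative replicate 2 above its group (log2 fold change 1.12 ± 0.14 (SE), adjusted p = 6.43e-04). Slc38a7 was at 50.4, 52.5, 59.1 and 52.6 against 28.8, 15.7, 16.3 and 11.9 CPM, a log2 fold change of 1.56. Slc36a1 was low, at 10.4, 10.5, 8.04 and 7.196 against 5.04, 0.891, 2.44 and 3.06 CPM; its call ended without replicate 3 or 4 (adjusted p = 0.101 and 0.0813), without GPR35-positive replicate 1 or 2 (0.066 and 0.0568) or without GPR35-negative replicate 3 (0.0612).

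The exchangers that pair with the heavy chain Slc3a2 went separate ways. Slc3a2 itself, which carries its partners to the surface, was at 524, 446, 404 and 384 CPM against 475, 818, 548 and 523 CPM and did not pass (log2 fold change -0.43 ± 0.20 (SE), adjusted p = 0.117); with library-size or upper-quartile scaling it was lower (adjusted p = 0.0132 and 0.0443). Slc7a5, the large neutral amino acid exchanger, was lower at 31.8, 23.0, 24.0 and 24.6 against 51.4, 62.9, 62.3 and 51.1 CPM (log2 fold change -1.14 ± 0.15 (SE), adjusted p = 8.05e-04). Slc7a11, which exchanges cystine for glutamate and so supplies glutathione synthesis, was higher at 43.6, 46.03, 29.7 and 31.5 against 17.9, 17.7, 21.7 and 25.7 CPM. The log2 fold change of Slc7a11 was 0.86 ± 0.20 (SE), adjusted p = 0.01, and without replicate 1 the adjusted p was 0.0565. Slc7a7, an exporter of cationic amino acids, was higher at 83.8, 86.7, 83.7 and 89.6 against 38.5, 43.98, 29.1 and 18.8 CPM, a log2 fold change of 1.40. It overlaps Oxa1l.

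Slc7a8, a second neutral amino acid exchanger, was at 152, 94.2, 136 and 129 CPM in GPR35-positive and 93.7, 19.3, 22.1 and 11.5 CPM in GPR35-negative libraries. Negative replicate 1 all but reached the lowest positive library, while the other 3 lay far below. This gave Slc7a8 a log2 fold change of 1.80 ± 0.60 (SE), adjusted p = 0.0429; without replicate 1 or GPR35-negative replicate 1 it passed, and without any other animal or library it did not (adjusted p from 0.0578 to 0.158).

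Slc1a4 and Slc1a5, exchangers of small neutral amino acids and glutamine, were both lower. Slc1a4 (chr11:20302180-20332713) was at 0.4901, 0.703, 3.896 and 2.34 CPM against 39.1, 40.5, 38.9 and 39.5 CPM, a gap with no library near the other group (log2 fold change -4.40 ± 0.62 (SE), adjusted p = 0.00106). Slc1a5 was at 98.99, 119, 102 and 86.3 against 174, 209.9, 204 and 169 CPM; log2 fold change -0.90 ± 0.14 (SE), adjusted p = 0.00152. Slc38a2, the amino-acid-regulated glutamine carrier, was at 341, 264, 208 and 211 against 263, 169, 204 and 124 CPM and did not pass, although it was higher in all 4 animals (log2 fold change 0.43 ± 0.25 (SE), adjusted p = 0.204). Slc7a2, the arginine importer of activated macrophages, was near the lowest counts, at 1.42, 0.0669, 1.17 and 0.561 against 0, 0, 1.798 and 3.09 CPM, and no direction could be given (log2 fold change -0.60 ± 1.54 (SE), adjusted p = 0.779).

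Promoters of the members were searched for 7 short motifs on both strands of the window that RefSeq gives from 250 bases before to 50 bases after a gene's start (GRCm38.p6), where 172 members had a window. The palindromic E-box CACGTG, the core letters bound by basic helix-loop-helix factors, including those of the lysosomal gene network, was in 12 of 38 members called higher (31.6%), in 5 of 25 called lower (20%) and in 12 of 95 not called (12.6%), against 8.09% of all 27025 genes with a window, counted in the same way (any window of the gene). The metal response core TGCGCNC was in 23.7%, 48% and 23.2% of these member groups and in 17.0% of all genes. The longer composite CLEAR motif, which contains the E-box, was in 0 members of the 3 groups and in 0.370% of all genes. The PU.1 motif GAGGAAGT was in 0 of the 38, in 8% of those lower and in 3.16% of those not called (3.69% of all genes). AP-1 (TGACTCA) was in 2.63%, 0 and 7.37% (5.95% of all genes), the amino acid response letters TGATGNAA in 7.89%, 8% and 1.05% (4.51% of all genes), and the unfolded protein response letters TGACGTG in 2.63%, 4% and 6.32% (2.22% of all genes). None of the 7 contains another except for the CLEAR motif. The 27025 genes include ones without enough counts to test, while the 3 member groups hold tested genes only. No share over the tested genes is given, so the contrasts with all genes are not matched for expression. A match is a description of letters and not a bound site. The 120 bases before the start of 4 genes called higher and 1 called lower are printed to show where the E-box lies, with its letters in capitals; the motif was chosen for display after these shares were seen. The starts are those RefSeq lists, and for Slc12a9 and Slc43a1 they lie inside the annotated span of the gene.
Slc12a9 (higher; chr5:137333583-137333702, minus strand): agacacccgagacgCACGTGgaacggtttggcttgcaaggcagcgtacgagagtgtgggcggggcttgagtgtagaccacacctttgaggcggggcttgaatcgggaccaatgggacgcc
Slc35a5 (higher; chr16:45158674-45158793, minus strand): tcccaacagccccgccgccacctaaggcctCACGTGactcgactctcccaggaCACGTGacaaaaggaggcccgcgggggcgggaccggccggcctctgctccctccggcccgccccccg
Slc36a1 (higher; chr11:55204220-55204339, plus strand): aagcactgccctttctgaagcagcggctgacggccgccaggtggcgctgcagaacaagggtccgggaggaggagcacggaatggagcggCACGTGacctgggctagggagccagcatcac
Slc38a7 (higher; chr8:95853492-95853611, minus strand): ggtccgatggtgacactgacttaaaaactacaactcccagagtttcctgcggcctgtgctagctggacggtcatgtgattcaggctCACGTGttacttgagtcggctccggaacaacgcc
Slc43a1 (lower; chr2:84840203-84840322, plus strand): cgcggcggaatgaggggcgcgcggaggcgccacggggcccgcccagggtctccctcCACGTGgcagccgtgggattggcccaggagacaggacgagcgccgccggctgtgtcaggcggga
The E-box is present at 1 place in each printed stretch other than that of Slc35a5, which holds it at 2. Slc36a1 has a further E-box at position -3 from the start, which runs past the end of its printed stretch. Slc43a1, a carrier of large neutral amino acids, holds the E-box too and was lower, at 0.0467, 0.469, 0.499 and 0.464 CPM against 11.8, 13.5, 13.2 and 9.28 CPM.

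Sugar carriers changed by member. Slc2a1 (GLUT1), the main glucose importer of activated macrophages, and Slc37a2, a sugar phosphate carrier of the endoplasmic reticulum, were higher; Slc37a1, Slc37a3 and Slc50a1 were lower. Of 20 tested, 4 were higher (20%) and 5 lower (25%), near the shares of all genes, with a median of -0.105. Slc2a1 was at 119, 88.2, 65.1 and 54.3 CPM against 38.97, 35.5, 42.4 and 23.5 CPM, and no libraries overlapped (log2 fold change 1.22 ± 0.28 (SE), adjusted p = 0.00861). Slc2a3 (GLUT3), a high-affinity glucose importer, was at 10.3, 17.9, 15.6 and 17.2 against 10.1, 17.4, 18.3 and 8.74 CPM, with fully mixed libraries (log2 fold change 0.16 ± 0.30 (SE), adjusted p = 0.692). Slc37a2 (chr9:37229149-37255738) was at 174, 122, 130.4 and 132 against 58.4, 24.7, 22.1 and 14.2 CPM, with negative replicate 1 the nearest of its group. Slc37a2's log2 fold change was 2.23 ± 0.40 (SE), adjusted p = 0.00322.

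Slc37a3, which belongs to the same family and is known for moving bisphosphonates out of lysosomes, went the other way, at 14.3, 13.5, 15.2 and 10.9 against 30.1, 39.5, 28.2 and 27.6 CPM (log2 fold change -1.22 ± 0.18 (SE), adjusted p = 0.00134). Slc50a1, the mammalian sugar carrier of the SWEET type, was at 38.6, 39.6, 36.4 and 37.4 against 72.6, 102, 96.3 and 101 CPM, and its positive libraries spread over only 36.4 to 39.6 CPM (log2 fold change -1.29 ± 0.13 (SE), adjusted p = 2.58e-04). Slc5a10, a sodium-coupled carrier of mannose and fructose, had 3 counts in all 4 GPR35-positive libraries and 161 in the GPR35-negative ones. The ratio scaled to library size was 78.8-fold lower (exact 95% interval 26.5 to 386.2, counting error only), and the gene overlaps Fam83g.

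Among carriers of nucleosides, vitamins and cofactors, 2 of the 3 tested nucleoside carriers of family 29 were higher, and carriers of nucleobases, riboflavin and acetyl-CoA were lower. Of the 3 tested members of family 44, which holds the choline carriers, 1 was higher and 2 were lower. Of 18 tested, 4 were higher (22.2%) and 7 lower (38.9%), with a median of -0.110. With the animal as a block 4 were higher and 5 lower, where 19.4% and 20.0% of all genes were. In family 44, 1 was then lower. Slc29a3 (ENT3; chr10:60712072-60752849), which returns nucleosides from the lysosome, was at 298, 212, 239 and 239.7 CPM against 101, 47.9, 47.9 and 17.9 CPM. Negative replicate 1 was the highest of its group and replicate 4 the lowest, and none came near the positive group (log2 fold change 2.20 ± 0.44 (SE), adjusted p = 0.00504). Slc29a1 (ENT1), its counterpart at the cell surface, was at 160.2, 197, 222 and 235 against 117, 54.8, 84.8 and 90.5 CPM (log2 fold change 1.23 ± 0.23 (SE), adjusted p = 0.0037).

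Slc43a3 (chr2:84936545-84958509), a purine nucleobase carrier, was at 8.45, 7.26, 19.9 and 15.5 CPM in GPR35-positive and 69.6, 81.96, 137 and 109.6 CPM in GPR35-negative libraries. The fitted log2 fold change of Slc43a3 was -2.96 ± 0.37 (SE), adjusted p = 6.24e-04. Slc52a3, a riboflavin importer, was at 1.75, 4.02, 3.596 and 3.54 against 14.5, 8.796, 25.6 and 19.4 CPM, with no overlap (log2 fold change -2.40 ± 0.40 (SE), adjusted p = 0.00218). Slc33a1, which brings acetyl-CoA into the endoplasmic reticulum, was at 40.6, 29.7, 32.3 and 32.9 against 82.2, 113, 82.3 and 97.6 CPM, and the choline carrier Slc44a1 at 40.3, 35.1, 52.8 and 59.4 against 116, 99.2, 149 and 74.7 CPM. Their log2 fold changes were -1.47 and -1.23, and Slc33a1 overlaps Gmps.

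Inorganic ion carriers had 9 of 31 higher (29.03%) and 3 lower (9.68%), with a median of 0.272. Slc8a1, the sodium-calcium exchanger of the plasma membrane, was at 39.7, 26.4, 32.6 and 29.6 CPM against 13.5, 2.97, 7.71 and 3.36 CPM, with all positives above all negatives (log2 fold change 2.21 ± 0.47 (SE), adjusted p = 0.0066). Slc20a1, a phosphate importer, was at 126, 102, 71.8 and 77.4 against 47.96, 20.03, 35.96 and 13.8 CPM, a log2 fold change of 1.68. Slc12a9, an orphan relative of the cation-chloride carriers, was at 93.02, 70.4, 67.7 and 66.2 against 48.1, 11.8, 12.3 and 15.1 CPM, with replicate 1 the highest in both groups. On the log2 scale the difference for Slc12a9 was 1.76 ± 0.46 (SE), adjusted p = 0.0155, and the call ended without replicate 2, 3 or 4 (adjusted p = 0.065, 0.0647 and 0.0786).

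Slc12a4, a potassium-chloride exporter that responds to cell swelling, was lower at 44.5, 30.5, 32.2 and 36.8 against 69.2, 44.2, 85.7 and 66.5 CPM, although GPR35-positive replicate 1 and GPR35-negative replicate 2 crossed. The log2 fold change of Slc12a4 was -0.88 ± 0.21 (SE), adjusted p = 0.0114; it did not pass without replicate 3 or 4 (0.0782 and 0.0623). Slc12a2, the sodium-potassium-chloride importer, was at 4.504, 2.58, 9.84 and 10.3 against 9.38, 21.2, 21.7 and 9.24 CPM (log2 fold change -1.17 ± 0.50 (SE), adjusted p = 0.0952; DESeq2 gave 0.0454). Slc26a3, the chloride-bicarbonate exchanger that marks surface colonocytes, was at 3.43, 0, 3.75 and 2.95 against 5.68, 14.9, 7.99 and 1.23 CPM (log2 fold change -1.55 ± 1.13 (SE), adjusted p = 0.303). Neither passed, and in both the groups overlapped.

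Carboxylate and fatty acid carriers had 5 of 16 higher (31.3%) and 3 lower (18.8%), with a median of -0.395. The lactate carriers of family 16 went both ways. Slc16a3 (MCT4), the exporter of glycolytic cells, was at 20.4, 20.1, 14.3 and 13.7 CPM against 5.47, 8.91, 5.39 and 1.23 CPM, and Slc16a1 (MCT1), which carries lactate in either direction, was at 34.5, 29.6, 32.9 and 36.5 against 49.8, 59.97, 54.7 and 73.7 CPM. Neither gene's groups overlapped. This gave Slc16a3 a log2 fold change of 1.71 ± 0.50 (SE), adjusted p = 0.026, with the call ending without replicate 1 or 3 (0.0976 and 0.0862), without GPR35-positive replicate 1 or 2 (0.0657 and 0.0572) or without GPR35-negative replicate 3 (0.0564), and Slc16a3 overlaps Csnk1d. Slc16a1's log2 fold change was -0.84 ± 0.15 (SE), adjusted p = 0.00313.

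Slc16a5 (chr11:115462405-115474398), another member of the family, was low in the positive fraction, at 2.15, 1.34, 1.02 and 1.66 CPM against 27.1, 71.7, 43.2 and 46.8 CPM. The fitted log2 fold change of Slc16a5 was -4.93 ± 0.38 (SE), adjusted p = 6.37e-05. Slc13a3, a sodium-coupled importer of succinate and other dicarboxylates, was higher at 17.3, 12.8, 30.02 and 27.7 against 8.04, 3.92, 2.88 and 3.19 CPM, with positive replicates 1 and 2 below positive replicates 3 and 4 (log2 fold change 2.28 ± 0.42 (SE), adjusted p = 0.00349).

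The mitochondrial carriers of family 25, the largest family here, differed little. Of 38 tested, 6 were higher (15.8%) and 2 lower (5.26%), and 24 were within 1.5-fold. Their median log2 fold change was 0.117 and their median size of change 0.321, against 0.663 for all genes. Slc25a5, which swaps ADP for ATP across the inner membrane, was at 439.5, 511, 404 and 464 CPM against 350.1, 395, 363 and 423 CPM and did not pass (log2 fold change 0.25 ± 0.13 (SE), adjusted p = 0.157). Slc25a45 was at 103, 97.04, 89.1 and 98.8 against 63.7, 39.8, 32.3 and 14.1 CPM (log2 fold change 1.37 ± 0.37 (SE), adjusted p = 0.0192); its call ended without replicate 2 or 3 (0.0726 and 0.0815) or without GPR35-negative replicate 3 (0.0504). Slc25a36, a carrier of pyrimidine nucleotides, was at 51.9, 33.7, 37.5 and 47.1 against 34.05, 16.3, 20.3 and 9.74 CPM, so that positive replicate 2 and negative replicate 1 met. On the log2 scale the difference for Slc25a36 was 1.08 ± 0.35 (SE), adjusted p = 0.037, and it did not pass without replicate 2, 3 or 4 (0.0936, 0.108 and 0.114), without GPR35-positive replicate 1, 3 or 4 (0.0949, 0.057 and 0.0865) or without GPR35-negative replicate 2 or 3 (0.0872 and 0.0752).

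Slc6a6 (chr6:91684048-91759063), the taurine importer, was the 1 of 8 tested carriers of neurotransmitters and osmolytes that was higher, and 2 were lower (12.5% and 25%; median -0.656). It was at 248, 219.9, 250.1 and 268 CPM against 121, 36.8, 61.8 and 40.9 CPM, with negative replicate 1 again nearest to the positives. The log2 fold change of Slc6a6 was 1.92 ± 0.36 (SE), adjusted p = 0.00364. The 2 lower were the glycine carrier Slc6a9, at 0.5601, 0.335, 1.199 and 1.24 against 4.28, 14.2, 5.55 and 5.72 CPM, and the vesicular monoamine carrier Slc18a2, at 2.26, 1.27, 3.896 and 2.73 against 3.06, 3.27, 24.02 and 19.4 CPM. In Slc18a2 the negative libraries formed a low pair, replicates 1 and 2, and a high pair, replicates 3 and 4, and its call ended with limma voom (0.13), without any one of replicates 2 to 4 (0.0515, 0.118 and 0.161), any GPR35-positive library (0.0524 to 0.0928) or GPR35-negative replicate 3 or 4 (0.105 and 0.0871).

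Of 13 tested carriers of organic ions, bile acids and urea, 0 were higher and 3 lower (23.1%), with a median of 0.0862. At an unadjusted p under 0.05 in edgeR 2 were higher, and DESeq2 called 1 higher and limma voom 2. Slc17a9, which loads vesicles with ATP, was at 7.35, 5.62, 7.27 and 7.61 CPM against 22.4, 25.4, 26.3 and 16.6 CPM (log2 fold change -1.70 ± 0.21 (SE), adjusted p = 5.82e-04). Slc22a17, a receptor for the siderophore-binding protein lipocalin 2, was at 5.83, 6.13, 5.99 and 5.903 against 12.2, 7.01, 17.3 and 10.2 CPM. This gave Slc22a17 a log2 fold change of -0.97 ± 0.29 (SE), adjusted p = 0.0295; with the animal as a block the adjusted p was 0.0599, and the call also ended without replicate 1, 3 or 4 (0.107, 0.168 and 0.0913), any GPR35-positive library (0.0578 to 0.0753) or GPR35-negative replicate 1 or 3 (0.0525 and 0.0889). Of the 5 nucleotide sugar carriers, the UDP-galactose carrier Slc35a2 was lower, at 24.5, 24.6, 27.9 and 24.2 against 36.4, 28.7, 50.5 and 39.3 CPM, and Slc35a5 was higher, at 72.5, 60.8, 68.97 and 95.9 against 54.1, 47.8, 32.7 and 41.5 CPM (class median 0.110). Slc35a2 did not pass without replicate 1, 3 or 4 (0.0759, 0.0956 and 0.111), GPR35-positive replicate 1, 2 or 4 (0.0683, 0.0612 and 0.0726) or GPR35-negative replicate 3 (0.0653), and Slc35a5 did not pass without replicate 3 or 4 (0.0633 and 0.0869). The 5 genes that match the name but are no transporters (Slc9a3r1, Slc9a3r2, Slc7a6os, Slc4a1ap and the pseudogene Slc2a4rg-ps) had 1 called, Slc9a3r1, which was higher. It is a scaffold protein that binds sodium-proton exchangers (log2 fold change 0.38). Its call ended with library-size (adjusted p = 0.59) and upper-quartile (0.139) scaling, with a filter of 5 CPM (0.0733) and with the animal as a block (0.0586). It also ended without any one animal (0.0506 to 0.122), without GPR35-positive replicate 1 or 2 (0.0945 and 0.0828) and without GPR35-negative replicate 2 or 3 (0.0642 and 0.092). With the animal as a block Slc9a3r2 passed in its place, as lower (log2 fold change -1.40, adjusted p = 0.0108).

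Members of 1 family went opposite ways in some families and the same way in others. Of the 45 families, 38 had a called member, of which 12 had only higher, 11 only lower and 15 both; 7 had none. The 15 were families 2, 4, 5, 6, 7, 12, 16, 23, 25, 30, 35, 37, 41, 43 and 44. Families with more members have more chances to hold both directions, as 18.5% of all tested genes were higher and 19.5% lower. No expected number was worked out, so the 15 are a count and not a trait of the families. With the animal as a block, families 23 and 30 had 0 lower members. Family 43 held a wide split, with the amino acid carriers Slc43a1 lower (log2 fold change -5.01) and Slc43a2 higher (1.77, at 149.6, 103, 130.3 and 121 against 60.7, 17.1, 31.8 and 38.5 CPM). In family 37, Slc37a1 (-1.19) and Slc37a3 (-1.22) were lower and Slc37a2 (2.23) was higher. In family 44, Slc44a1 (-1.23) was lower and Slc44a2 (0.75) higher. These pairs were picked after their values were seen, and on the macrophage scale all of them lay below 0. Each kept its side of the all-gene median, which follows from the near-equal shift of all genes.

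**Figure D3:**
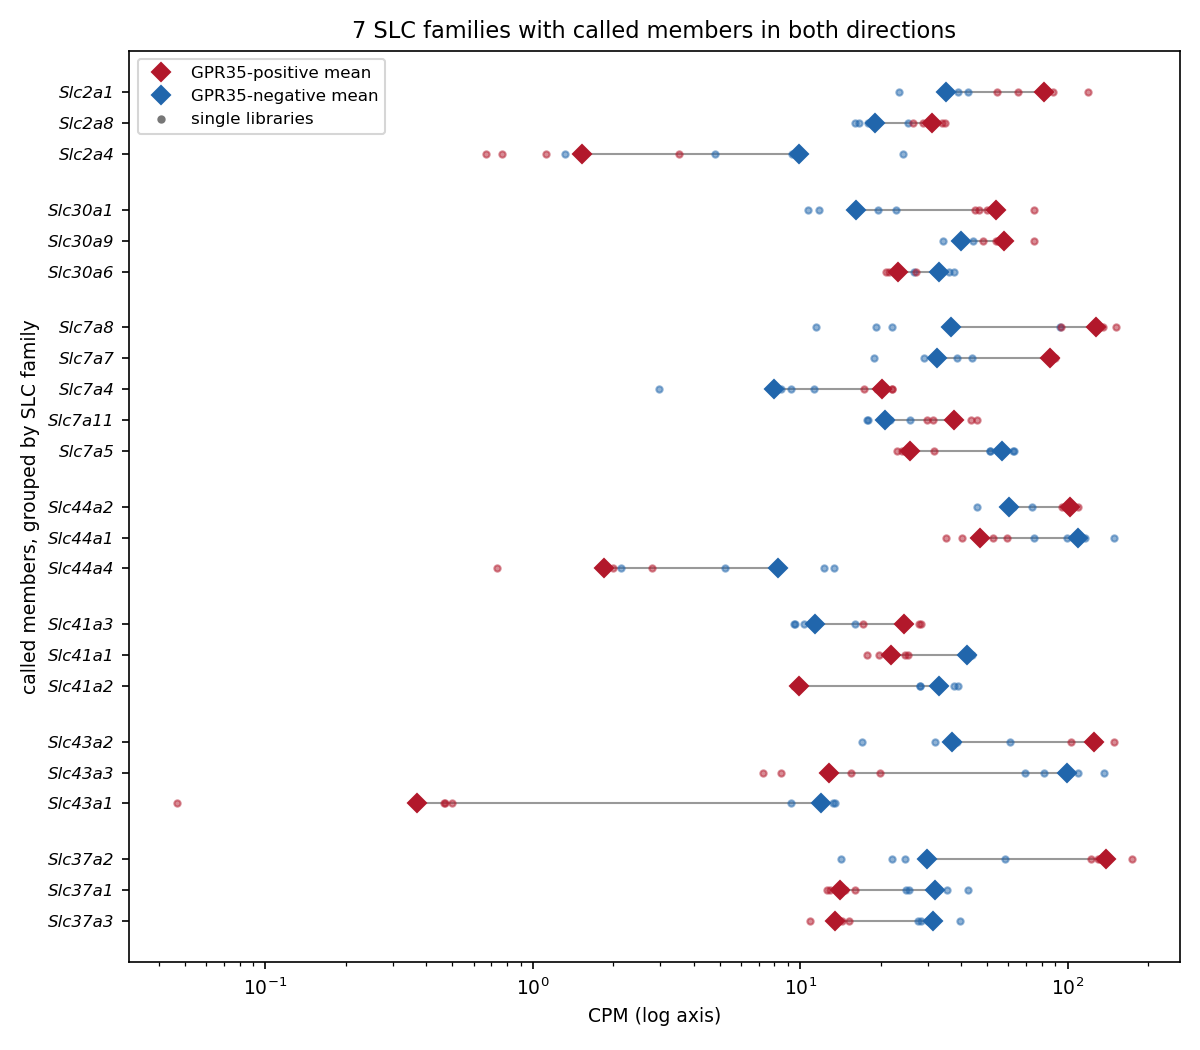
Called members of 7 of the 15 families that had members in both directions, on the y axis, against CPM on a log x axis; diamonds are the means of the GPR35-positive (red) and GPR35-negative (blue) group, small points the 4 libraries of each and grey bars join the means. Within each family red lies to the right of blue for some members and to the left for others, as for Slc43a2 beside Slc43a1 and Slc37a2 beside Slc37a3; with macrophage identity scaling the members with red to the right would turn below 0. A library with no count cannot be drawn on this axis.

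Levels per kilobase of gene length, which alone allow genes to be set side by side, placed Slc25a5 first in both fractions, at 351 and 296 CPM per kilobase. Slc11a1 had rank 2 in the GPR35-positive fraction at 254 CPM per kilobase and rank 11 in the GPR35-negative one at 45.9. Slc3a2 had ranks 3 and 2, at 149 and 199.8. Slc39a7 had rank 3 in the GPR35-negative fraction at 142 CPM per kilobase and rank 8 in the positive one at 63.7. Slc50a1 had rank 5 at 90.8 in the negative fraction and rank 20 at 37.2 in the positive one, and Slc29a1 had rank 5 at 82.4 in the positive and rank 19 at 35.1 in the negative. These are levels and ranks, with no test between genes.

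Transporters of the same membranes that fall outside the name rule were listed apart. The list also holds Unc93b1, which takes receptors to the endosome and counts among the 9 higher, so its shares are not of transporters alone. Of 28 listed, 21 were tested, 9 were higher (42.9%, against 18.5% of all genes) and 2 lower (9.52%, against 19.5%), with a median log2 fold change of 0.644 (all genes -0.0487). The higher ones included Unc93b1, which takes nucleic acid-sensing Toll-like receptors to the endosome (1.52 ± 0.26), the lysosomal cystine exporter Ctns (0.97 ± 0.24), the heme exporter Flvcr1 (0.96 ± 0.19), the phosphate exporter Xpr1 (1.11 ± 0.29) and the mitochondrial sodium-calcium exchanger Slc8b1 (1.42 ± 0.33), all as log2 fold change ± SE. The lower ones were Mfsd2a, a lysophospholipid importer (-3.55 ± 0.54), and Mpc2, a subunit of the mitochondrial pyruvate carrier (-0.94 ± 0.22). Of 15 chaperones and regulators of transporters, 5 were higher (33.3%) and 2 lower (13.3%; median 0.362). The 2 chaperones of the lactate carriers went apart, with Emb higher (2.65 ± 0.29) and Bsg lower (-1.03 ± 0.18). Nfe2l2, the factor known for inducing Slc7a11, was higher (2.04 ± 0.31), as were Hif1a (1.54 ± 0.26) and Tfeb (0.76 ± 0.15). The zinc-binding metallothionein Mt2 was lower (-2.75 ± 0.28). Atf4, Mtf1 and Mt1 did not pass. With macrophage identity scaling, Emb was the 1 of the 14 higher genes of both lists that kept a value above 0. Its value did not differ detectably from 0 (0.082, edgeR adjusted p = 0.867). All 14 lay above the shifted all-gene median, which again follows from the near-equal shift of all genes. Without replicate 3 or 4 the calls of Xpr1 (adjusted p = 0.057 and 0.0651), Slc8b1 (0.0502 and 0.0522) and Ctns (0.0524 and 0.0763) ended, as did that of Ctns without replicate 2 (0.0618).

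**Figure D4:**
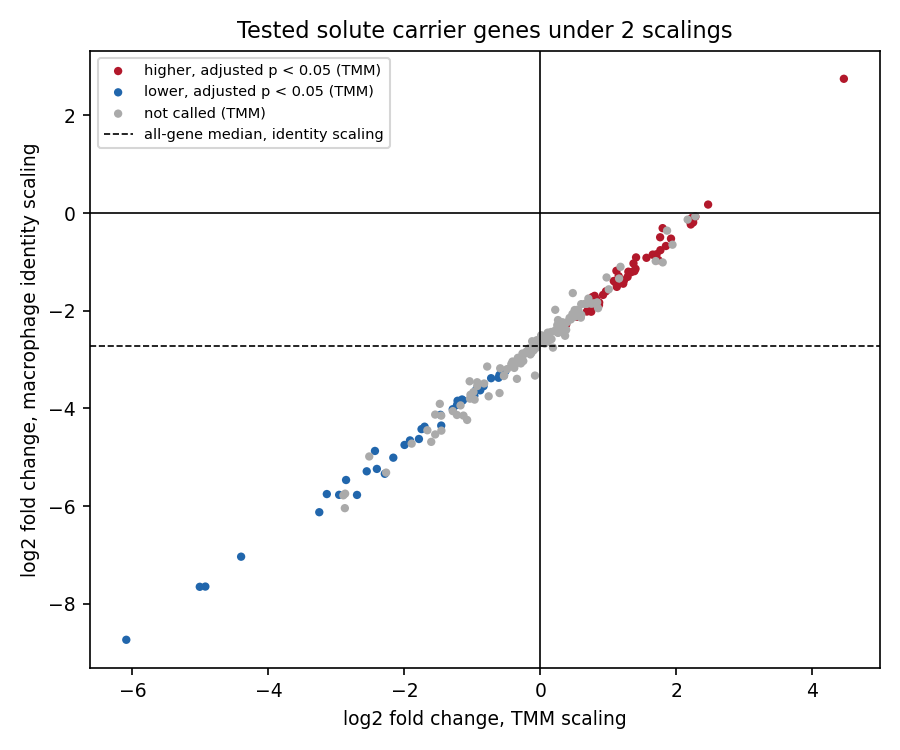
Each point is a tested solute carrier gene, with its log2 fold change under TMM scaling on the x axis and under macrophage identity scaling on the y axis; colours give the call under TMM, and the dashed line the all-gene median of -2.72 on the second scale. Points lie close to 1 line, so that all red ones lie above the dashed line and all blue ones below it by their TMM call. Only Slc11a1 and Slc36a3 among the red ones lie above 0 on the y axis, neither of them detectably (edgeR adjusted p = 0.684 and 0.111).

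The 14 members with too few counts to test were Slc15a1, Slc38a4, Slc13a2, Slc8a3, Slc12a8, Slc30a2, Slc39a5, Slc6a17, Slc6a4, Slc5a7, Slc29a4, Slc44a3, Slc17a7 and Slc2a12. Among the 127 that did not pass, 68 had a mean of at least 10 CPM. Slc36a3, the member with the largest fitted increase, had 153 counts over the GPR35-positive libraries and 5 over the GPR35-negative ones. Its call ended without replicate 2, 3 or 4 (adjusted p = 0.0748, 0.0766 and 0.0807) or without GPR35-positive replicate 1, 2 or 4 or GPR35-negative replicate 3 (0.0578, 0.0552, 0.0543 and 0.0544). Of the 86 called members, 16 overlap another gene of the count table, and reads in the shared stretch cannot be told apart.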

How the data were processed

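The authors deposited raw counts, as whole numbers for each gene and library, whose totals differ between the 8 libraries. Per the labels' protocols, cDNA was made with SMART-Seq v4 and libraries with Nextera XT, which mark no strand and carry no molecular identifiers. The exact interval given for Slc5a10 pools the libraries of each group and takes every count as independent, so it leaves out variation between libraries. The SEs of the fits include that variation. Tools named by the submitters' processing notes are STAR 2.5.2a and R 3.4.2, with the mm10 build; how reads were counted over genes, and with which annotation, is not given in the sources used here. Of 14980 rows, 9 without a symbol (0.0179% of counts) were left out.

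Counts were fitted over all genes with edgeR 4.0.16 in R 4.3.3: filterByExpr (minimum count 10, minimum total 15), TMM, a robust quasi-likelihood F-test with no block, and Benjamini-Hochberg adjustment over 14184 tested genes at 0.05. Log2 fold changes are GPR35-positive over GPR35-negative, and their SE is the absolute change divided by the root of F. Levels in CPM use TMM effective library sizes, and CPM per kilobase the deposited gene length. "Called" means an adjusted p under 0.05. Entrez IDs gave coordinates from RefSeq's GRCm38.p6 annotation for all 227 members, and promoter sequences are RefSeq's of that build.

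Cargo classes follow the family number with single-gene exceptions; Slc4a1ap was put among the genes that match by name only after the table was read. The named genes were, per class, the 2 largest increases and 2 largest decreases among called members with 1 direction in all 4 animals and a mean log2 CPM of at least 3, the 5 members with the highest mean CPM, and 17 genes listed by name. The members, lists and rules were chosen with earlier results of these data known. Alternatives were RLE, library-size, upper-quartile and macrophage identity scaling, no count filter, a filter of 5 CPM in 4 libraries, DESeq2 1.42.0, limma voom (limma 3.58.1), the animal as a replicate block, and leaving out each animal or library.

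Replicate numbers pair the libraries because the labels give the same animal to both. Across genes, the 2 libraries of an animal, each taken as a deviation from its group mean, had correlations of 0.206, 0.206, 0.431 and 0.0637 in replicates 1 to 4, and the highest correlation with a library of another animal was 0.104, 0.104, 0.2375 and 0.2375. Genes are not independent replicates. No 2 libraries of a group agreed within sampling noise (smallest chi-square per degree of freedom 25.5). Tested on simulated counts over 13998 genes for this comparison, the fit recovered 11.3% of genes changed by 1 and 54.1% of genes changed by 2 on the log2 scale, with 5.88% of calls false. Only 97 and 98 genes were given these changes, while 38.0% of all tested genes were called in the data. The adjusted threshold was thus stricter in the simulation, and its recovery does not give the power for these data.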

Additional observations from a re-analysis of the deposited data

Results flagged for a closer look

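In 6 of 88 groups of 4 libraries, over the named members and the solute carrier share of counts, 1 library lay far from the other 3, where chance gives about 1 in 20 groups. The amino acid exchanger Slc7a8 was at 93.7 CPM in GPR35-negative replicate 1 and at 11.5 to 22.1 CPM in the other 3. Slc12a9, the orphan chloride carrier relative, was at 48.1 CPM in the same library against 11.8 to 15.1 CPM, and at 93.0 CPM in GPR35-positive replicate 1 against 66.2 to 70.4 CPM, so the animal of replicate 1 was highest in both fractions. Slc15a4, the endolysosomal peptide carrier, was at 84.1 CPM in GPR35-negative replicate 2 against 58.9 to 62.7 CPM. The zinc exporter Slc30a1 was at 74.7 CPM in GPR35-positive replicate 2 against 45.1 to 50.01 CPM. The UDP-galactose carrier Slc35a2 was at 27.9 CPM in GPR35-positive replicate 3 against 24.2 to 24.6 CPM.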

How the results depend on the processing

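Under TMM 49 members were higher and 37 lower. The counts were 47 and 40 with RLE, 41 and 45 with upper-quartile, 26 and 53 with library-size and 0 and 176 with macrophage identity scaling. Leaving out an animal or library gave 22 to 53 higher and 25 to 40 lower. Shares of all genes called are given above only for TMM, macrophage identity scaling and the replicate block. With the replicate block they were 49 and 34, and of the called members Slc16a13, Slc26a2, Slc30a6, Slc9a3r1, Slc23a1, Slc44a4 and Slc22a17 did not pass the block (adjusted p = 0.0703, 0.0609, 0.0704, 0.0586, 0.0701, 0.0907 and 0.0599); it ended no other call. Of 35 named genes past the threshold, 30 kept direction and call under the 8 settings other than identity scaling and left-out libraries, and 24 under every left-out animal or library.

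With macrophage identity scaling the log2 fold change turned negative for Slc7a11 (-1.88), Slc7a8 (-0.31), Slc15a3 (-0.19), Slc15a4 (-1.51), Slc38a2 (-2.15), Slc13a3 (-0.074), Slc16a3 (-0.84), Slc8a1 (-0.23), Slc12a9 (-0.49), Slc30a1 (-0.96), Slc25a36 (-1.39), Slc25a45 (-1.03), Slc25a5 (-2.44), Slc6a6 (-0.52), Slc29a1 (-1.38), Slc29a3 (-0.17), Slc35a5 (-1.79), Slc2a1 (-1.45), Slc2a3 (-2.58) and Slc37a2 (-0.10), as the scale itself moves the all-gene median to -2.72. With library-size scaling, Slc25a5 (-0.045) and Slc2a3 (-0.12) turned negative. Slc7a2 became positive with limma voom (1.32) and with the replicate block (0.58). With an animal or library left out, Slc7a2 ran from -1.43 to 0.56, Slc40a1 from -0.51 to 0.18 and Slc2a3 from -0.060 to 0.36. The cause was not tested. A filter of 5 CPM gave no value for Slc7a2 and Slc26a3. Depth limits members at a few counts, such as Slc5a10, Slc36a3 and Slc7a2.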
